A study of Drosophila melanogaster with 12 samples.

Results

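The comparison described here is that of pupal wings at 18 h after puparium formation (APF), when the wing cells go through their last divisions, with wings at 36 h APF, when they are postmitotic. It takes the 2 libraries labelled 18 h APF and the 2 labelled 36 h APF, 4 of the 12 libraries of an RNAseq time course of the *Drosophila* wing from the larval L3 stage to 44 h APF. All of them came from dissected wings of the same strain, given as w1118/y,w, hs-FLP; + ; +, which carries FLP recombinase under a heat shock promoter, and no group had a treatment. Each stage was a pool of wings from many animals, with 2 independent replicates per stage in the study's methods, so the replicates, and the p-values, hold the difference between pools and not that between animals. Values are raw read counts per gene scaled by edgeR's TMM method to CPM (read counts relative to an equal library total), which allows a gene to be compared between libraries but not 1 gene with another, since longer genes collect more reads.

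Cell division is driven by cyclins bound to cyclin-dependent kinases. The E2F/DP factors switch on the genes for DNA replication, and the retinoblastoma proteins, in the dREAM complex among others, hold E2F targets off when cells leave the cycle. Mitotic cyclins are destroyed by the anaphase-promoting complex (APC/C), first with its activator Fizzy (*fzy*) at mitosis and then with Fizzy-related (*fzr*, called *rap* in the files) in G1. The wing epithelium then flattens, each cell grows an actin-rich hair, and cuticle is secreted over it, under the control of the steroid hormone ecdysone.

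The 18 h replicates held 6142110 and 3013205 reads on genes and the 36 h replicates 3807939 and 4036142, so that 3 counts correspond to 0.392 and 0.840 CPM at 18 h and 0.883 and 0.833 CPM at 36 h. This level of 3 counts is called the counting floor. It is a limit on the counts seen. It does not cover the spread between replicates, nor all counting error where a gene had some counts. Of 15240 genes in the files, 8469 were above a log2 CPM of 2 in 1 library or more of the 12 and were tested. Across genes, which are not independent replicates, the Spearman correlation of the replicates was 0.986 for the 18 h and 0.972 for the 36 h wings, and 304 and 576 genes differed at least 2-fold between them. The second 36 h replicate stood apart from the first. Among the genes called higher at 36 h, 79 had 36 h replicates at least 4-fold apart, and in 78 of them replicate 2 was the higher. *Ssk* and *Tsp2A*, which make the smooth septate junctions of the gut, were at 0.294 and 35.8 CPM and 0.294 and 26.6 CPM in the 36 h replicates, and at 0 and 0.28 CPM and 0 and 0.28 CPM at 18 h. They were picked after their values were seen. The counts of the cell cycle list, of most other lists and of all genes are therefore also given without this library.

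The libraries carried the markers of wing tissue. All 11 wing epithelium genes looked at were tested, among them *vg*, *sd* and *nub*, and summed to 3417.9 and 3118 CPM at 18 h and 2283 and 2557 CPM at 36 h APF. Of these, *ap*, *rn*, *en* and *ci* were lower at 36 h (36.4%, against 17.4% of all genes tested). Muscle genes were 385.7 and 460.7 CPM in sum at 18 h and 1779 and 1853 CPM at 36 h. Of these 13 genes 9 were higher (69.2%, against 21.3% of all genes tested). Hemocyte genes summed to 53.7 and 42.5 CPM and to 79.4 and 78.8 CPM, with 2 of 8 higher (25%, near the 21.3% of all genes tested). Among them *proPO-A1* had no count in 3 of the 4 libraries. Fat body genes summed to 160.0 and 97.4 CPM at 18 h and to 135.9 and 133.0 CPM at 36 h. Of 7 tested, 1 was higher (*Yp3*, 14.3%, against 21.3% of all genes tested), and *Yp1* had no count in the 4 libraries. Of 7 neuron and glia genes tested 4 were higher (57.1%, against 21.3% of all genes tested) and of 3 tracheal genes none. No salivary gland glue gene reached the level for testing. For all that follows, fewer cells that hold a transcript and less of it per cell cannot be told apart in whole wings.

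The cell cycle genes fell together between 18 and 36 h APF. A list of 186 genes in 10 roles was used, of which 183 were tested, and 151 of these (82.5%) were past the test as lower at 36 h, against 17.4% of all genes tested. Past the test means 2-fold or more in size with a Benjamini-Hochberg adjusted p, from the quasi-likelihood test of edgeR, under 0.05. Only 2 members, *rap* and *toc*, were past it as higher, or 1.09%, against 21.3% of all genes tested. The members had a median log2 fold change of −2.69, against 0.00 for all genes tested, and the median member kept 15.4% of its 18 h mean. In 170 of the 183 members both 36 h replicates lay below both 18 h replicates, against 38.9% of all genes tested. Without 36 h replicate 2 the test called 147 members lower and 2 higher, the floor described next held 47 members on the count of the remaining library, and 30 stayed on.

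**Figure D1:**
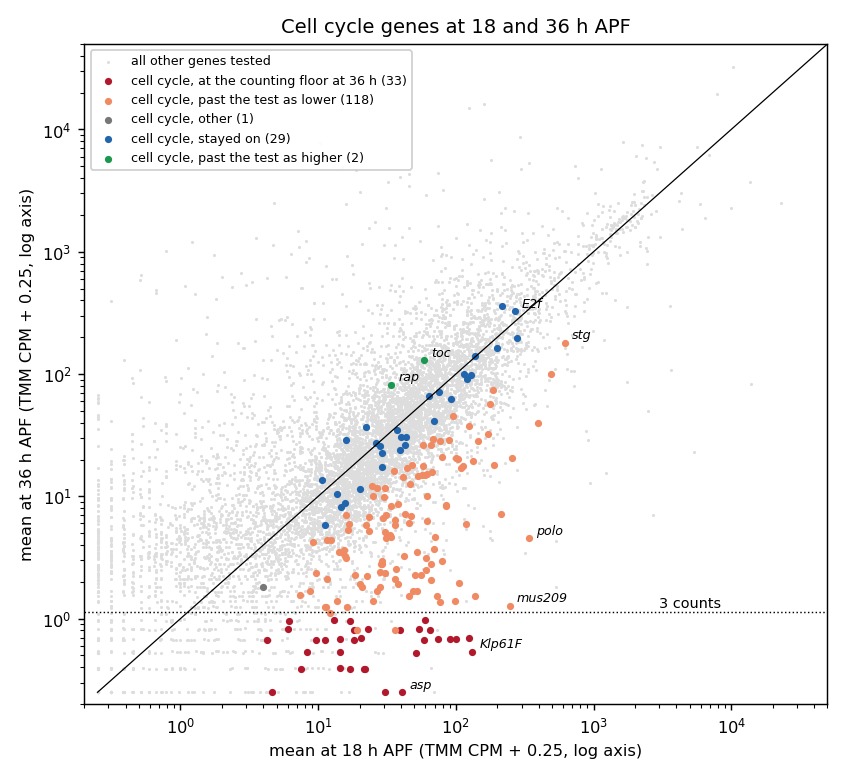
Mean level of each gene at 18 h (x axis) and 36 h APF (y axis), both in TMM CPM with 0.25 added, on log axes; each point is the mean of 2 replicates, coloured points are the 183 cell cycle genes by class, grey points the other genes tested, the diagonal marks equal levels and the dotted line 3 counts in the shallower 36 h library. The 33 genes at the floor lie under the dotted line although they ranged from 3.99 to 131.4 CPM at 18 h. The 29 that stayed on lie nearer the diagonal, with 51.2 to 184% of the 18 h mean kept (median 76.6%). In 18 of these both 36 h replicates were below both 18 h replicates, in 3 above, and in 8 the stages overlapped.

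Members were sorted by what was left of them at 36 h. Of the 151, 33 had at most 3 counts in both 36 h libraries, which is the floor, and 118 were lower but above it in at least 1 library. The floor class held 1.61% of all genes tested, 136 genes, of which the 33 cell cycle genes were 24.3%. A further 29 members (15.8%) were neither past the test nor under 50% of their 18 h mean, and are said to have stayed on, a class that took in 58.6% of all genes tested. One, *mus101*, was in neither class. The roles differed in these shares. Of the DNA synthesis genes 27 of 28 fell, of the genes for mitotic entry 15 of 16, and of the G1/S regulators 5 of 10.

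**Figure D2:**
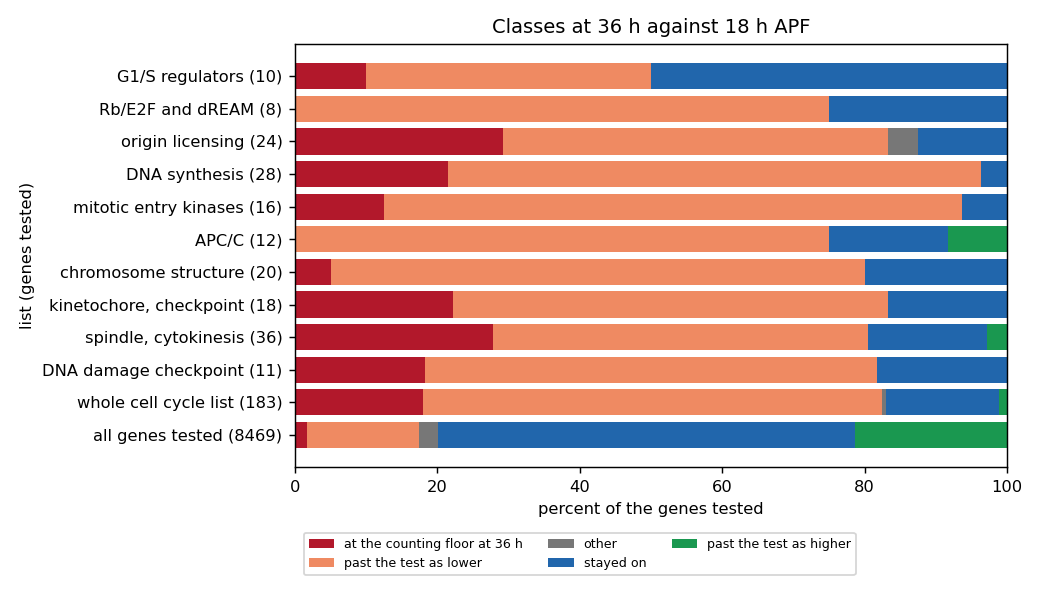
Share of the genes tested (x axis, percent) in each of 5 classes at 36 h against 18 h APF, for each of the 10 cell cycle roles, the whole list and all genes tested (y axis, number tested in parentheses). Among the 10 roles the G1/S regulators have the largest share that stayed on (5 of 10), below the 58.6% of all genes tested, and DNA synthesis the smallest (1 of 28).

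Among the G1/S regulators, the genes that carry cells into S phase split into ones that stayed on and ones that fell. *E2f*, the activator E2F1, had 244 and 289 CPM at 18 h APF and 244 and 408 CPM at 36 h APF. The ranges of the 2 stages met at 244 CPM, and the change was not past the test (log2 fold change 0.29, standard error 0.28, adjusted p = 0.408). *Cdk4*, the partner of Cyclin D, had 93.3 and 90.1 CPM at 18 h APF and 65.3 and 59.4 CPM at 36 h APF (68.0% kept), and *CycE*, which with Cdk2 starts S phase, 19.6 and 20.2 CPM at 18 h APF and 12.7 and 9.99 CPM at 36 h APF (57.0% kept). Both were lower in both 36 h replicates, by less than 2-fold, with adjusted p-values of 0.0562 and 0.0114. *ago*, the F-box protein that marks Cyclin E for destruction, kept 95.1% and *Cks85A* 184%. *Cks85A* overlaps *CG8112* and *TMEM216* on the opposite strand, and its higher level at 36 h had an adjusted p of 0.0285 at under 2-fold.

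The kinase that Cyclin E needs did fall. *cdc2c*, which encodes Cdk2 and overlaps *CG17267* on the opposite strand, went from 56.9 and 82.8 CPM to 4.41 and 4.44 CPM (log2 fold change −3.96, standard error 0.45, adjusted p = 2.25e-05), so that 6.33% was left. *CycD* had 58.0 and 57.4 CPM at 18 h APF and 29.1 and 22.8 CPM at 36 h APF, a fall past the test (log2 fold change −1.15, standard error 0.22, adjusted p = 0.00108) in which the stages did not overlap. Without 36 h replicate 2 the difference was under 2-fold (log2 fold change −0.99). *Dp*, the partner of E2F, kept 39.5% of its level. *dap*, the Cdk inhibitor Dacapo of the p21/p27 family, had 101 and 98.0 CPM at 18 h APF and 25.3 and 15.5 CPM at 36 h APF and was also lower after exit (log2 fold change −2.28, standard error 0.26, adjusted p = 2.17e-05). *Cks30A*, a small subunit of Cdk complexes, was at the floor with 1 and 2 counts in the 36 h replicates, from 54.1 and 63.0 CPM at 18 h, and was at least 66.3-fold lower.

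Of the 8 genes of the Rb/E2F and dREAM group, *Rbf* and *mip130* stayed on and 6 fell. *Rbf*, the main retinoblastoma protein of the fly, had 28.1 and 29.1 CPM at 18 h APF and 13.5 and 20.8 CPM at 36 h APF. All 36 h values were below those at 18 h, but the change missed the test (log2 fold change −0.73, standard error 0.30, adjusted p = 0.0606), and it was past it without 36 h replicate 2 (log2 fold change −1.08). *Rbf2* fell to 21.6% of its level, the repressor *E2f2* to 24.8% and *Myb* to 32.0%. *mip120* had the largest fall of the group (−2.21 on the log2 scale), and *mip130*, another dREAM subunit, kept 91.2%.

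Origin licensing genes, which load and fire the replicative helicase, were lower in 20 of 24 members, and 7 of these were at the floor. *Mcm7* had 87.5 and 92.1 CPM at 18 h and 2 and 1 counts in the 36 h replicates, and *Mcm5* had 49.0 and 52.9 CPM and 0 and 2 counts. They were at least 102-fold and 57.7-fold lower at 36 h. *Mcm7* overlaps an antisense RNA gene. *Mcm3* was at the floor as well, and *Mcm2* and *Mcm6* kept 2.93% and 5.13%. The other members at the floor were *Orc2* and *Orc6* of the origin recognition complex, *Mcm10*, and *RecQ4*, at least 12.4-fold to 20.2-fold lower except for *Orc6* (at least 8.29-fold). *dup*, the fly Cdt1 that loads the helicase, and its inhibitor *geminin* were not at the floor. *geminin* had 97.7 and 126 CPM at 18 h APF and 18.2 and 16.9 CPM at 36 h APF, and *dup* 30.6 and 30.8 CPM at 18 h APF and 6.77 and 6.94 CPM at 36 h APF. The 36 h replicates were close to each other in both genes and kept 15.7% and 22.3% of the 18 h mean.

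The sixth helicase subunit did not follow the others. *dpa*, which encodes Mcm4, had 44.1 and 42.5 CPM at 18 h APF and 32.1 and 28.6 CPM at 36 h APF, and the change was not past the test (log2 fold change −0.52, standard error 0.34, adjusted p = 0.219). Its level was lower at the stages on either side, with 7.37 ± 1.05 CPM (SD, n = 2) at 24 h and 3.28 ± 0.0595 CPM at 44 h APF. *dpa* and *DNApol-epsilon* were the 2 members of the list whose 36 h mean was over 2-fold above those at both 24 and 44 h. The annotation lists no exon of another gene over *dpa*, and *DNApol-epsilon* was not matched to it. *chif* and *l(1)G0148*, the Dbf4 and Cdc7 parts of the kinase that fires origins, also stayed on, with 86.5% and 127% of the 18 h mean.

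DNA synthesis genes lost most of their transcripts. *mus209*, the sliding clamp PCNA, had 197 and 293 CPM at 18 h APF and 1.77 and 0.278 CPM at 36 h APF (log2 fold change −7.89, standard error 0.53, adjusted p = 4.25e-07). It was the largest fitted fall of the group, and the 36 h values rest on 6 and 1 counts. *RnrL* and *RnrS*, the subunits of ribonucleotide reductase that makes deoxynucleotides, went from 120.4 and 153 CPM to 1.47 and 1.11 CPM and from 89.3 and 122 CPM to 1.18 and 2.22 CPM. They kept 0.944% and 1.61%, with adjusted p-values of 1e-07 and 2.55e-07. All 4 subunits of DNA polymerase alpha and primase were at the floor, from at least 6.68-fold lower for *DNApol-alpha73* to at least 44.2-fold lower for *DNApol-alpha180*, which overlaps *Jhbp16* on the opposite strand. *Ts*, thymidylate synthase, had 0 and 1 counts at 36 h and was at least 24.3-fold lower, and *cutlet* was at least 10.6-fold lower. *Caf1-180*, a subunit of the chromatin assembly factor that loads histones behind the fork, was the member that stayed on, with 30.7 and 47.9 CPM at 18 h APF and 17.7 and 29.7 CPM at 36 h APF (60.3% kept, adjusted p = 0.129). Its partner *Caf1-105* kept 4.67%.

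Genes for entry into mitosis fell in 15 of 16 cases. *polo*, the Polo kinase, had 334 and 349 CPM at 18 h APF and 4.12 and 4.44 CPM at 36 h APF (log2 fold change −6.31, standard error 0.26, adjusted p = 3.65e-08). The stages were far apart and the replicates close, and 1.25% was kept. *CycA*, *CycB* and *CycB3*, the mitotic cyclins, fell 12.4-fold, 30.8-fold and 7.16-fold. Their values were 22.7 and 18.3 CPM, 7.94 and 5.83 CPM and 4.41 and 4.16 CPM in the 36 h replicates. The kinase they bind kept more. *cdc2*, the fly Cdk1, had 149 and 191 CPM at 18 h APF and 31.5 and 32.2 CPM at 36 h APF (log2 fold change −2.41, standard error 0.23, adjusted p = 5.34e-06), and its 36 h values rest on 107 and 116 counts. *ial*, Aurora B, was at the floor with 2 and 1 counts after 59.0 and 88.7 CPM, at least 83.7-fold lower and the largest fitted fall of the group. *aur*, Aurora A, had 0 and 4 counts, and it overlaps *CG12213* on the opposite strand.

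The phosphatase that switches Cdk1 on and the kinases that hold it off differed in what was left. *stg*, the Cdc25 phosphatase String, had 593 and 638 CPM at 18 h APF and 114 and 245 CPM at 36 h APF. It fell past the test (log2 fold change −1.78, standard error 0.34, adjusted p = 0.00105), but its 36 h replicates differed from each other and held 386 and 882 counts. At 24 h APF, between the 2 stages, it was at 934 ± 38.6 CPM (SD, n = 2), and at 44 h at 27.5 ± 0.62 CPM. *twe*, the other Cdc25 of the fly, known for meiosis, was at the floor. *wee*, the Wee1 kinase, went from 32.7 and 28.0 CPM to 12.7 and 10.3 CPM (log2 fold change −1.41, standard error 0.23, adjusted p = 0.000388) and overlaps *Rat1* on the opposite strand. *Myt1*, the second inhibitory kinase, had 16.5 and 14.6 CPM at 18 h APF and 9.71 and 7.49 CPM at 36 h APF and stayed on with 55.5%, a difference of under 2-fold (adjusted p = 0.0174) that was past the test without 36 h replicate 1 (log2 fold change −1.05).

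**Figure D3:**
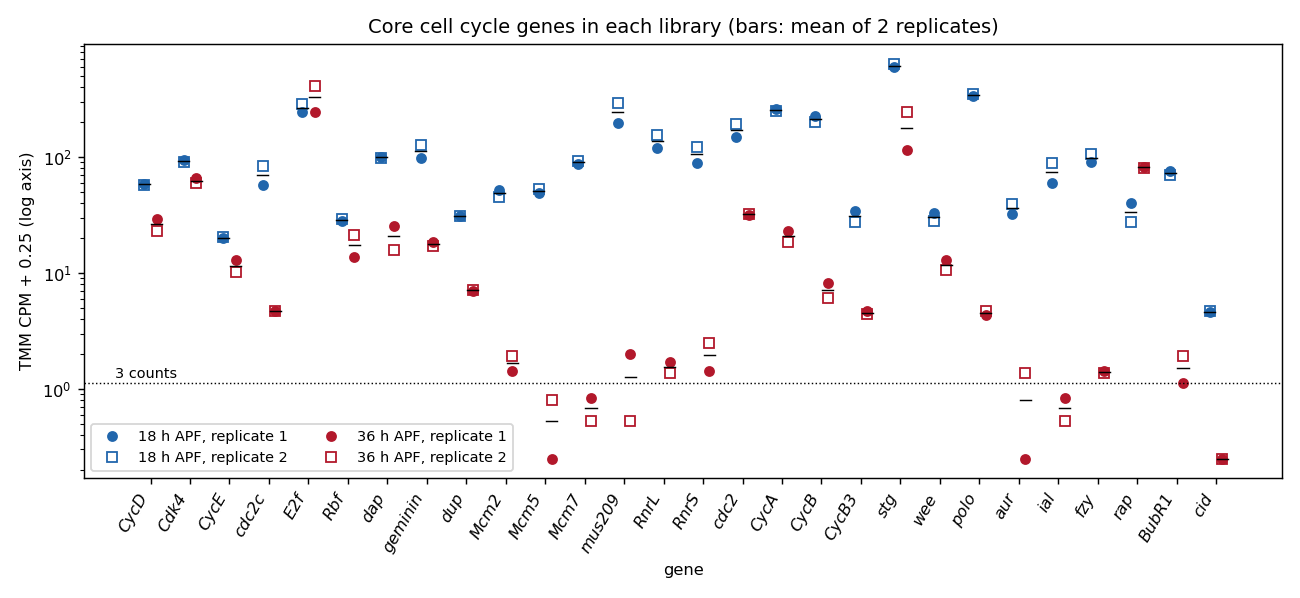
Level of 28 core cell cycle genes (x axis) in each library, in TMM CPM with 0.25 added on a log axis (y axis); blue marks are 18 h and red marks 36 h APF, filled circles replicate 1 and open squares replicate 2, short bars the mean of 2 replicates and the dotted line 3 counts in the shallower 36 h library. The 36 h marks of *Mcm5*, *Mcm7*, *ial* and *cid* lie under the line, those of *E2f* lie around its 18 h marks, and those of *rap* lie above them.

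The 2 activators of the APC/C went in opposite directions. *fzy* (Cdc20), which acts in mitosis, had 90.1 and 106 CPM at 18 h APF and 1.18 and 1.11 CPM at 36 h APF (log2 fold change −6.39, standard error 0.40, adjusted p = 2.95e-07) and kept 1.16%. It overlaps *cact* on the opposite strand. *rap* (Fizzy-related, Cdh1), which keeps the APC/C active in G1, had 40.0 and 27.1 CPM at 18 h APF and 82.4 and 80.2 CPM at 36 h APF, and both 36 h values were above both at 18 h (log2 fold change 1.26, standard error 0.26, adjusted p = 0.00182). With library size alone, a scaling that moves the median of all genes by −0.46, the rise of *rap* was 0.81 on the log2 scale and not past the test. Of the core of the APC/C, *Cdc27* (Apc3) stayed on with 72.1 and 56.0 CPM at 18 h APF and 62.7 and 69.9 CPM at 36 h APF, as did the ubiquitin-conjugating enzyme *vih*. The other subunits tested (*shtd*, *mr*, *cdc23*, *cdc16*, *ida*, *APC4* and *Apc10*) fell, and kept between 8.5% (*ida*) and 37.4% (*mr*). *Rca1*, an inhibitor of Fizzy-related, kept 32.3%.

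Chromosome structure genes, the condensins, cohesins and their regulators, were lower in 16 of 20 members and 4 stayed on. *Top2*, the topoisomerase that untangles sister chromatids, had 433 and 352 CPM at 18 h APF and 39.4 and 39.7 CPM at 36 h APF (10.1% kept). *Sse*, separase, which cuts cohesin at anaphase, had 0 and 1 counts at 36 h, at least 18.9-fold lower, and its inhibitor securin (*pim*) kept 7.3%. *vtd*, the cohesin subunit Rad21, kept 75.4%, the cohesin loader *Nipped-B* 70.2%, and *Cap-H2*, of condensin II, 76.6%. *wapl*, which releases cohesin from chromatin, had 21.8 and 21.8 CPM at 18 h APF and 33.5 and 40.0 CPM at 36 h APF. Its 36 h values were above those at 18 h, by under 2-fold (log2 fold change 0.75, standard error 0.26, adjusted p = 0.028). The condensin subunits *SMC2*, *CAP-D2* and *glu* kept 4.76%, 3.42% and 9.78%.

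Of 18 kinetochore and checkpoint genes 15 fell. *cid*, the centromeric histone CENP-A, had 4.31 and 4.48 CPM at 18 h and no count in either 36 h replicate, at least 4.98-fold lower. *Ndc80*, *zwilch* and *ald* (the Mps1 kinase) were at the floor too, at least 16.1-fold, 25.6-fold and 20.5-fold lower. *BubR1*, a checkpoint protein that holds Fizzy, had 75.2 and 69.7 CPM at 18 h APF and 0.883 and 1.67 CPM at 36 h APF (log2 fold change −5.79, standard error 0.37, adjusted p = 3.47e-07). Its relative *Bub1* was at 27.7 and 24.6 CPM at 18 h APF and 27.7 and 26.1 CPM at 36 h APF (log2 fold change 0.03, standard error 0.22, adjusted p = 0.914). *mit(1)15* (Zw10), which with *rod* and *zwilch* forms the RZZ complex, stayed on with 78.3%, whereas *rod* kept 2.77%. *Mis12* stayed on with 51.2% and 23 and 16 counts at 36 h, just inside the 50% limit.

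The spindle and cytokinesis genes held the largest fitted fall of the list, that of *asp*. *asp* had 349 and 125 counts and *sub* 28.3 and 32.2 CPM at 18 h, and neither had a count at 36 h, which makes them at least 45.6-fold and 34.3-fold lower. *asp* organises spindle poles, and *sub* is a kinesin-6 of the spindle midzone that overlaps *Ir54a* on the opposite strand. *Klp61F*, the kinesin-5 that pushes spindle poles apart, had 124 and 139 CPM at 18 h and 1 and 1 counts at 36 h, at least 149-fold lower, the largest bound in the list, and overlaps *galene* on the opposite strand. The cytokinesis genes *sti* (Citron kinase), *pav* (the kinesin-6 Pavarotti) and *tum* (its RacGAP partner) were at least 139.7-fold, 113-fold and 72.7-fold lower. *cmet* (CENP-E), *msd1*, *dgt4* and the centriole gene *ana2* were also at the floor. All 8 genes of the augmin complex, which branches spindle microtubules, were lower, with *dgt5* keeping 44.7% and the others 23.3% or less.

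Of the spindle and cytokinesis genes 6 stayed on. *Klp10A*, a microtubule-depolymerising kinesin-13, had 150.5 and 126 CPM at 18 h APF and 129 and 152 CPM at 36 h APF, and the 2 stages overlapped. *msps* (XMAP215) kept 81.2%, *cnn* (centrosomin) 93.2%, and *cana* and *ana1* 59.9% and 61.3%. *tacc*, the partner of *msps*, had 234 and 199 CPM at 18 h APF and 419 and 306 CPM at 36 h APF, higher in both 36 h replicates by under 2-fold (log2 fold change 0.74, standard error 0.26, adjusted p = 0.0291). It overlaps an antisense RNA gene. *toc* (toucan), a microtubule-associated gene, had 62.8 and 54.3 CPM at 18 h APF and 121 and 137 CPM at 36 h APF and was past the test as higher (log2 fold change 1.14, standard error 0.20, adjusted p = 0.000688). Like the rise of *rap*, that of *toc* was not past the test with library size alone (log2 fold change 0.69).

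DNA damage checkpoint genes fell in 9 of 11 cases. *grp*, the fly Chk1, had 509 and 468 CPM at 18 h APF and 106 and 95.2 CPM at 36 h APF and kept 20.6%. *Claspin*, which brings Chk1 to stalled forks, and *mei-41*, the ATR kinase, were at the floor, at least 61.1-fold and 6.61-fold lower. *tefu*, the ATM kinase, kept 15.4% and *lok*, Chk2, 27.0%. *p53*, a transcription factor of the damage response, stayed on with 55.1%.

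The class of 29 members that stayed on was mixed. In 18 of them both 36 h replicates were below both 18 h replicates, in 3 above, and in 8 the stages overlapped. Of all genes tested, 38.9% were below and 38.6% above in this sense. An adjusted p under 0.05 was reached by 10 of the 29, at less than 2-fold. With library size alone, 161 members were past the test as lower, *Cdk4*, *CycE*, *Rbf*, *Caf1-180* and *Myt1* among them, and none as higher. With a limit of 75% of the 18 h mean in place of 50%, 18 members stayed on. At the other end, a floor of 10 counts in place of 3 took in 70 members in place of 33. Levels at 36 h ranged from 5.60 to 362.3 CPM in the 29 genes and up to 0.719 CPM in the 33.

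The other stages of the series show where the 3 classes stood outside the 2 compared. The classes themselves were set by the 18 and 36 h values. All percentages are relative to the same 18 h means, which therefore enter every value. At 24 h APF the median of the 33 floor genes was already 10.8% of the 18 h mean, and 32 of the 33 were under 50%. The 118 genes that were lower but above the floor stood at a median of 37.7%, with 81 under 50%, and the 29 that stayed on at 85.0%, with 2 under 50%. At 44 h APF the medians were 3.11%, 16.4% and 78.7%. Of the 33, 13 were at the floor at 44 h in both libraries too, and all 33 were under 50%. In the wing disc of wandering L3 larvae, whose cells also divide and whose libraries are titled 0 h APF although their stage label is larval, the 3 classes were at 118.0%, 96.7% and 103.0%, and at 6 h APF at 45.9%, 52.6% and 101.0%.

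**Figure D4:**
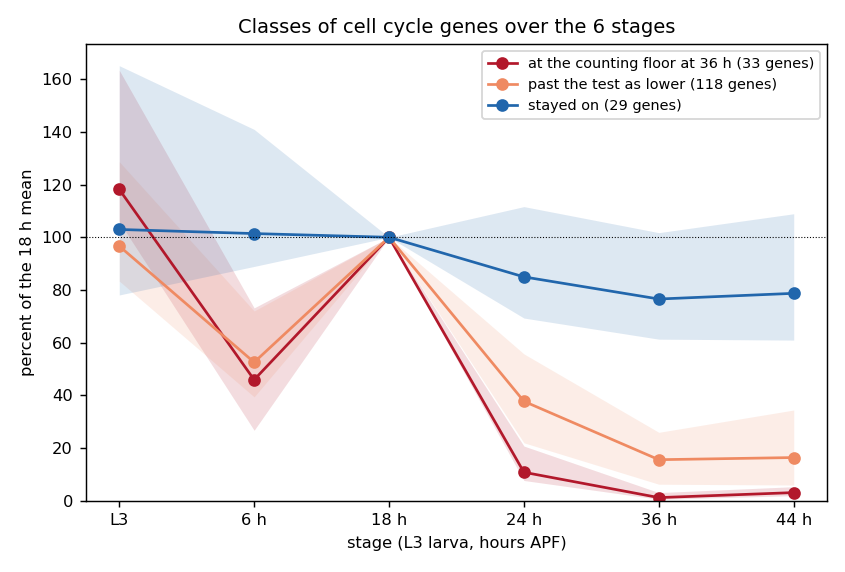
Level of the cell cycle genes in percent of the 18 h mean of the same gene (y axis) at the 6 stages (x axis), for the 33 genes at the floor at 36 h, the 118 that were lower and the 29 that stayed on; lines are medians over genes and bands the quartiles. The floor genes were at 10.8% at 24 h APF, when those that stayed on were at 85.0%, and they remained at 3.11% at 44 h.

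Lists of wing differentiation and growth genes show what took the place of the cell cycle transcripts. Their shares are read against the 21.3% of all genes tested that were higher, the 17.4% that were lower and the 58.6% that stayed on. The apical extracellular matrix list had the highest median of 11 lists. Of 13 zona pellucida (ZP) domain and related genes tested, 9 were higher at 36 h and 1 lower, with a median log2 fold change of 4.90. The share higher was 69.2%, against 21.3% of all genes tested, and without 36 h replicate 2 the same number, 9, were higher and none lower. The gene *dy* (dusky), a ZP protein of the wing cell surface, had 8.75 and 11.5 CPM at 18 h APF and 7224 and 8280.0 CPM at 36 h APF (log2 fold change 9.60, standard error 0.68, adjusted p = 5.74e-07), and *m* (miniature), its partner in wing cell shape, had 15.5 and 13.7 CPM at 18 h APF and 4695 and 5176 CPM at 36 h APF (log2 fold change 8.39, standard error 0.62, adjusted p = 7.81e-07). *cyr* went from 1.44 and 1.12 CPM to 227 and 195 CPM. In all 3 genes the stages lay more than 100-fold apart. *tyn* and *neo*, which were present at 18 h, rose 29.8-fold and 17.1-fold, and *dp* (dumpy), the giant matrix protein that anchors the wing to the cuticle, 2.99-fold. The member that fell was *CG10005* (log2 fold change −1.09, adjusted p = 0.0458), which left the test when any 1 of the 4 libraries was left out.

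Of 67 cuticle protein genes tested, 16 were higher (23.9%) and 11 lower (16.4%) at 36 h, shares near the 21.3% and 17.4% of all genes tested. With all libraries the median log2 fold change was −0.59, or −0.09 when genes at the floor take the value of their bound. *Cpr73D* had 2 and 2 counts in the 18 h replicates and 409 and 562 CPM at 36 h, at least 578-fold higher, and overlaps *Ogdh* on the opposite strand. *Cpr92A* and *Cpr47Ef* rose from the floor to 15.6 and 23.6 CPM and 4.71 and 7.49 CPM. *Cpr72Ea* went the other way, from 11999 and 16031 CPM to 73.6 and 90.5 CPM (log2 fold change −7.42, standard error 0.77, adjusted p = 1.08e-05), one of the largest losses of reads of any gene. *Cpr12A* fell from 474 and 482 CPM to 5.88 and 4.72 CPM. The list summed to 13405 and 17693 CPM at 18 h and to 1659 and 1733 CPM at 36 h, and most of the first sum was *Cpr72Ea*.

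Chitin genes, for the polysaccharide that cuticle proteins bind, had 7 of 21 higher (33.3%) and 2 lower (9.52%), against 21.3% and 17.4% of all genes tested (median log2 fold change 0.71). The split was 4 higher and 3 lower with library size alone, without either 18 h replicate 4 and 1, and without 36 h replicate 2, 6 and 1. *obst-A*, a chitin-binding protein, had 129 and 128 CPM at 18 h APF and 947 and 645 CPM at 36 h APF (log2 fold change 2.64, standard error 0.36, adjusted p = 8.5e-05), and *Cht6*, a chitinase family gene with an antisense RNA gene over it, rose 4.17-fold. *obst-E* rose from 4 and 0 counts at 18 h to 10.9 and 11.4 CPM, and lost its call without either 18 h replicate. *kkv*, the chitin synthase of the epidermis, was not past the test (log2 fold change 0.21, standard error 0.30, adjusted p = 0.586), while *mmy* and *nst*, which make its substrate, rose 2.21-fold and 2.53-fold. *knk*, which protects new chitin, fell from 197 and 244 CPM to 25.6 and 33.6 CPM (log2 fold change −2.89, standard error 0.23, adjusted p = 1.45e-06) and was at 991 ± 90.9 CPM (SD, n = 2) at 44 h. It overlaps an antisense RNA gene.

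Genes for the wing hair, the actin-filled outgrowth of each wing cell, were higher in 9 of 24 cases (37.5%, against 21.3% of all genes tested) and lower in none (median log2 fold change 0.47, or 0.019 with library size alone, where all genes stood at −0.46). Without 36 h replicate 2, 9 were higher too. *sha* (shavenoid) had 18.3 and 13.4 CPM at 18 h APF and 1039 and 817 CPM at 36 h APF (log2 fold change 5.85, standard error 0.39, adjusted p = 4.28e-07), *mwh* (multiple wing hairs), which limits each cell to a single hair, 12.7 and 8.12 CPM at 18 h APF and 559 and 494 CPM at 36 h APF, and *f* (forked), an actin bundler that overlaps *CG8664* on the opposite strand, 15.3 and 9.52 CPM at 18 h APF and 671 and 523 CPM at 36 h APF. The stages were well apart in all 3. The filamin *cher* rose 21.5-fold, *jv* 28.1-fold and the fascin *sn* 3.38-fold. The actin regulators *chic* (profilin) and *tsr* (cofilin) did not move past the test, with 86.0% and 71.4% of the 18 h mean.

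Of 16 tanning and pigment genes, which harden and colour the cuticle, 9 were higher (56.2%, against 21.3% of all genes tested) and none lower, or 8 without 36 h replicate 2 (median log2 fold change 3.01, or 1.82 when genes at the floor take the value of their bound). *e* (ebony) had 0.261 and 0.56 CPM at 18 h APF and 449 and 464 CPM at 36 h APF, at least 544-fold higher. *Pu* (Punch), which makes the pterin cofactor of dopamine synthesis, and *yellow-d2* went from 0.784 and 0.56 CPM to 203 and 178 CPM and from 0.522 and 0 CPM to 107 and 109 CPM. *laccase2*, which cross-links cuticle, rose 9.99-fold and *Dat*, which acetylates dopamine, 22.7-fold. The genes that make dopamine were low at both stages. *ple* (tyrosine hydroxylase) had 0.294 and 1.94 CPM and *Ddc* (dopa decarboxylase) 0.883 and 0.555 CPM at 36 h.

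Secretory pathway genes were higher by small amounts. All 25 were higher in both 36 h replicates than in both at 18 h, against 38.6% of all genes tested. Of these, 17 (68.0%) were past the test, against 21.3%, or 20 without 36 h replicate 2, and the median log2 fold change was 1.07. *CrebA*, the factor that turns up secretory genes in flies, had 187 and 264 CPM at 18 h APF and 1238 and 1762 CPM at 36 h APF (log2 fold change 2.74, standard error 0.47, adjusted p = 0.000526). *TRAM* and *Sec61gamma*, of the channel into the endoplasmic reticulum, rose 4.58-fold and 3.84-fold. With library size alone, 6 of the 25 were past the test and the median was 0.63, or above that of all genes, which stood at −0.46.

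Of 18 ecdysone response genes 8 were higher (44.4%, against 21.3% of all genes tested) and 3 lower (16.7%, against 17.4%). Their median log2 fold change was 0.94. The split was 5 higher and 5 lower with library size alone, and without 36 h replicate 2, 6 and 3. *Hr46* (the nuclear receptor Hr3) had 1.04 and 1.96 CPM at 18 h APF and 944 and 923 CPM at 36 h APF (log2 fold change 9.38, standard error 0.50, adjusted p = 1.15e-07), a difference of 621-fold, and shares exons with other genes on its own strand. *Eip78C* had 18.5 and 16.2 CPM at 18 h APF and 657 and 911 CPM at 36 h APF (log2 fold change 5.48, standard error 0.28, adjusted p = 1e-07). *Blimp-1*, *Hr4* and *E23* rose 24.8-fold, 22.9-fold and 13.8-fold. *Hr38* rose too, but its values of 1.18 and 4.72 CPM at 36 h are low, and it lost its call under 5 of the 13 alternatives. *EcR*, the receptor itself, did not move past the test (log2 fold change 0.03, standard error 0.22, adjusted p = 0.925), while its partner *usp* rose 2.73-fold. The genes that fell were *ftz-f1* (log2 fold change −2.38, standard error 0.44, adjusted p = 0.000836), *Eip74EF* and *Eip93F*, which kept 18.9%, 24.0% and 43.1%.

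Of 20 adhesion and matrix genes 15 were higher (75%, against 21.3% of all genes tested) and 1 lower (median log2 fold change 1.52). The number higher was 10 with library size alone and 15 without 36 h replicate 2. *rhea*, the integrin linker talin, had 48.1 and 34.4 CPM at 18 h APF and 994 and 753 CPM at 36 h APF (log2 fold change 4.39, standard error 0.35, adjusted p = 1.55e-06) and overlaps *CG6638* on the opposite strand. The integrin subunits *if*, *mew* and *mys* rose 8.02-fold, 3.04-fold and 2.27-fold. *vkg* and *Cg25C*, the collagen IV chains, rose 13.4-fold and 11.3-fold from under 5 CPM. *Mmp1*, a matrix metalloprotease, fell to 18.4% (log2 fold change −2.44, standard error 0.27, adjusted p = 1.78e-05), and *Mmp2* rose 3.21-fold. Muscle also uses integrins and talin, and hemocytes make collagen IV. The 9 muscle genes that were higher included *Mhc*, at 0.784 and 0.28 CPM at 18 h APF and 19.4 and 37.2 CPM at 36 h APF, and *sls*, at 160.4 and 199.5 CPM at 18 h APF and 1469 and 1383 CPM at 36 h APF. Of the 8 hemocyte genes, *Pxn* and *Sr-CI* were past the test as higher (25%, near the 21.3% of all genes tested). In 4 of the 8 both 36 h replicates were above both 18 h replicates, against 38.6% of all genes tested. The median log2 fold change of the 8 hemocyte genes was 1.47. Their sum was 53.7 and 42.5 CPM at 18 h and 79.4 and 78.8 CPM at 36 h, while *Hml*, one of them, had 0.653 and 0.84 CPM at 18 h APF and 0.294 and 0 CPM at 36 h APF. The part of these cells in the list was not tested.

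Of 20 vein and intervein genes 5 were higher (25%, against 21.3% of all genes tested), or 3 without 36 h replicate 2 and 3 with library size alone, and 1 was lower (5.0%, against 17.4%) (median log2 fold change 0.29, and −0.16 with library size alone, where all genes stood at −0.46). *vn* (vein), an EGF receptor ligand, had 34.6 and 38.3 CPM at 18 h APF and 169 and 166 CPM at 36 h APF (log2 fold change 2.20, standard error 0.18, adjusted p = 1.94e-06), and the vein genes *kni* and *knrl* rose 2.97-fold and 3.77-fold. For *kni* the difference was just under 2-fold without 36 h replicate 2. *net*, which represses vein formation, went from 46.8 and 32.7 CPM to 1.77 and 0.833 CPM (log2 fold change −4.93, standard error 0.47, adjusted p = 5.31e-06). Sensory organ genes, which mark bristle precursors and their daughters, were lower for *ac*, *sc* and *ase* (30% of 10, against 17.4% of all genes tested). *pros* was higher (10%, against 21.3%), and the other 6 were not past the test. The median log2 fold change of the 10 was −0.51.

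Of 19 ribosome biogenesis and growth genes, 5 were lower (26.3%, against 17.4% of all genes tested) and none higher (median log2 fold change −0.75), and 14 stayed on (73.7%, against 58.6%). Without 36 h replicate 2, 6 were lower. *Nlp*, a nucleoplasmin-like histone chaperone that overlaps *Nph*, had the largest fall (645 and 805 CPM at 18 h APF and 98.9 and 110.5 CPM at 36 h APF, log2 fold change −2.79, standard error 0.22, adjusted p = 1.55e-06). *RpI1* and *RpI135*, the large subunits of RNA polymerase I, kept 36.3% and 43.2%, and *dm*, the fly Myc, was not past the test (log2 fold change −0.03, standard error 0.32, adjusted p = 0.94). Of the 19, 13 were lower with library size alone. Of the 4 histone variants, whose transcripts are polyadenylated, *His2Av* fell to 10.9% (log2 fold change −3.19, standard error 0.23, adjusted p = 6.6e-07) and *His3.3A* to 36.1%. *His3.3B* and *His4r* stayed on at 169% and 111%. Both calls held without 36 h replicate 2. *His3.3A* and *His3.3B* encode the same protein, H3.3.

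**Figure D5:**
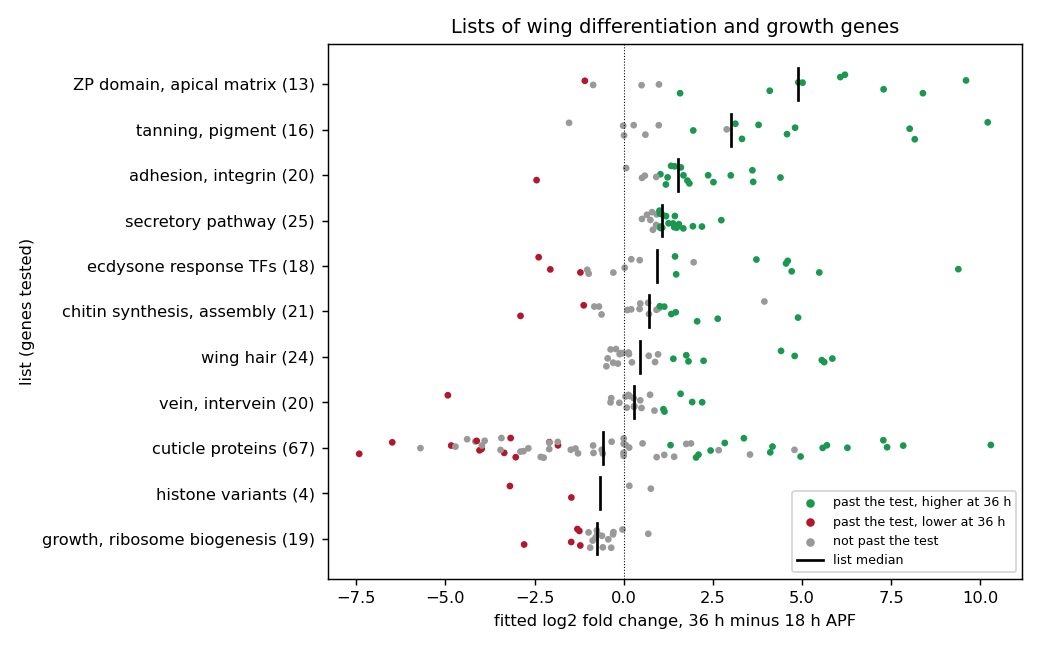
Fitted log2 fold change from 18 to 36 h APF (x axis) of each gene in 11 lists (y axis, number of genes tested in parentheses); green points are past the test as higher, red as lower and grey not past it, and black bars are list medians. The ZP list has the highest median (4.90) and growth and ribosome biogenesis the lowest (−0.75), and the cuticle protein genes spread to both sides.

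Over all genes, 1477 were lower and 1802 higher at 36 h APF, so that 55.0% of the calls were higher. With library size alone the split was 2496 lower and 1296 higher (34.2% higher). Without the genes whose 36 h replicates were at least 4-fold apart, 1455 were lower and 1723 higher, and without 36 h replicate 2 the counts were 1366 and 1580. The largest gains of reads were those of *CG13023*, from 11740.1 and 8964 CPM to 31044 and 34395 CPM, *Osi22*, from 5.75 and 9.52 CPM to 22349 and 16564 CPM, *Osi3*, *Osi9*, *pAbp* and *CG15888*. *Osi22*, *Osi3* and *Osi9* belong to the Osiris family of insect membrane proteins, and *pAbp* is the poly(A)-binding protein, whose rise was under 2-fold with library size alone. *CG15888*, which went from 3.92 and 6.44 CPM to 9219.9 and 8327 CPM, has no assigned role here. *CG13023* was not past the test without 18 h replicate 2. The largest losses were those of *bnb*, from 27201 and 18542 CPM to 2390.4 and 2611 CPM, *Cpr72Ea*, *ImpE2*, *Hsp27*, *CG1850* and *CG43164*. The small heat shock gene *Hsp27* fell to 22.6% and the ecdysone-inducible *ImpE2* to 27.1%.

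By fitted fold change the largest rises were *MtnB*, *Osi22*, *mAcR-60C*, *MtnD*, *CG14244* and *CG15169*. *mAcR-60C*, a muscarinic acetylcholine receptor with *CG13578* over it on the other strand, was without a count at 18 h and had 68.0 and 67.2 CPM at 36 h, at least 80.5-fold higher. The metallothioneins *MtnB* and *MtnD*, which bind metals, had 34 and 2828 counts and 2 and 451 counts in the 36 h replicates, and *CG14244* and *CG15169* 1.18 and 122 CPM and 1.18 and 117 CPM, so the 36 h means of these 4 genes rest mainly on replicate 2. *MtnD* was not past the test without that library, and *CG14244* and *CG15169* were not past it without 18 h replicate 1. The largest fitted falls were *CG15556*, *asp*, *sub*, *WRNexo*, *Brd* and *BthD*, all without a count at 36 h. *CG15556* was at least 78.0-fold lower, *WRNexo* at least 33.4-fold, *Brd*, a Notch pathway gene of sensory bristles, at least 18.7-fold and *BthD* at least 16.4-fold.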

How the data were processed

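RNA from dissected wings was sequenced with stranded mRNA libraries, which the authors mapped with TopHat2 (2.1.0) on dm3 and counted per gene with HTSeq (0.6.1). The deposited counts are raw reads per gene. The strand setting of the counting is not given in the sources used here. Exons of other genes on the opposite strand, from the BDGP6 annotation, are therefore named, but only for some of the genes. Such overlaps also exist for others, among them *Cdk4*, *CycE*, *Dp*, *mip130*, *vih*, *mit(1)15*, *msps*, *p53* and *cher*. *chif* and *usp* share exons with a gene on their own strand. A gene given without an overlap is therefore not shown to be free of one. Lines for reads on no single gene held 44.0 to 75.2% of the records of the 4 libraries and were left out. The authors also deposited RPKM values. The gene lengths they imply differed over 2-fold from the annotated exon length for 55.1% of 12471 genes (Spearman correlation 0.0117 across genes), so the RPKM values were not used, and 2 of their columns match no sample.

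Genes with a log2 CPM above 2 (prior count 2) in at least 1 library were tested with edgeR 4.0.16 (glmQLFit and glmQLFTest, TMM) in 1 model of 12 libraries and 6 stages, contrast 36 h minus 18 h, in R 4.3.3. An "at least" fold takes the mean of the 2 replicates over the larger floor of 3 counts in the other stage. It describes the counts seen and is not a confidence limit, so the true change may be smaller. Alternatives were DESeq2 1.42.0, its size factors, library size alone, other filters, 4 libraries alone, glmTreat, a 2-fold rule on means, a replicate term, other limits, and each library left out. Bounds in list medians, leaving out genes with discordant 36 h replicates, and leaving out libraries for the other lists and the classes were chosen after seeing the data. Steps were tested on simulated data.

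The comparison, lists and members were chosen with earlier results of these data known. Genes named are 28 core genes, all cell cycle members at the floor or higher, the largest fall and highest share kept of each role, the 6 largest fitted rises and falls (with separate replicates) and the 6 largest gains and losses of CPM over all genes, the 3 largest rises and the largest fall of each other list, and members of small sets. One gene under this rule is not reported here. Other members were named for their roles, after values were seen.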

Additional observations from a re-analysis of the deposited data

How the results depend on the processing

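The cell cycle list kept between 135 (glmTreat against 2-fold) and 161 (library size alone) members past the test as lower, and 147 to 151 with each library left out. With the replicate number as a block in the model, 151 were lower, and 3327 genes in all were past the test, against 3279 without the block; this paired fit changed no call of a named gene. The deviations of like-numbered 18 and 36 h replicates had a correlation of 0.055. This value covers only these stages, so it cannot decide whether the numbers pair the samples. Library size alone moved the median of all genes to −0.46, and higher genes to 34.2% of 3792 calls from 55.0%; glmTreat left 1980 calls, and leaving out each library 2943 to 3201. The list median was −3.14 with library size alone, −2.60 with DESeq2 size factors or its Wald test, and −2.81 to −2.66 with libraries left out. With library size alone 6 secretory and 13 growth genes were called (17 and 5 with TMM). The medians with library size alone were −1.18 for cuticle proteins, 4.45 for the ZP list and 0.25 for chitin (0.81 with DESeq2 size factors). They were 0.019 for wing hair, 2.50 for tanning, 0.63 for secretion and 0.49 for ecdysone response genes. For veins the median was −0.16, for adhesion 1.06, for growth −1.20 and for histone variants −1.10. With each library left out, 5 to 7 chitin genes were called, against 9, an alternative chosen after seeing the data. With floor genes at their bound, the cuticle median was −0.088, tanning 1.82 and ecdysone response genes 0.45. A floor of 10 counts held 70 cell cycle genes and 313 of all genes, and 18 members kept 75%. Of 1584 fits of the 122 named genes under 13 alternatives, 31 lost and 7 gained a call, and none reversed a call.

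Depth limits the floor class: a bound of 3 counts is a limit on the counts seen and not a confidence limit. Members with few 18 h reads could show only small falls, as *mei-41*, at least 6.61-fold lower. With 2 replicates of pooled wings a stage, a gene that missed the test is not shown to be unchanged, and 36 h replicate 2 carries transcripts the other lacks. Why these values moved was not tested.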

Other observations

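Other gene families, picked by symbol after the values were seen, are set against the 17.4% of all genes tested that were lower and the 21.3% that were higher at 36 h. Of 15 proteasome subunit genes tested, 12 were lower and none higher (median log2 fold change −1.52), and the sum went from 3017 and 3669 CPM to 1262 and 1319 CPM. Of 16 nucleoporin genes 11 were lower and none higher (median log2 fold change −1.84), with sums of 932.9 and 889.7 CPM at 18 h and 268.9 and 289.0 CPM at 36 h. The 84 ribosomal protein genes tested did not follow them, with 1 lower, 1 higher and a median of 0.16. Of 32 cytochrome P450 genes 19 were higher and 2 lower, and without 36 h replicate 2, 15 and 2 of 30. The sum of this family changed little, from 1620.9 and 2008.7 CPM at 18 h to 2179.8 and 2022.4 CPM at 36 h. The Osiris genes, a cluster of insect membrane proteins, had 10 of 22 higher and 1 lower. With any 1 of the 4 libraries left out, 9 or 10 were higher and none lower. The sum of the Osiris genes went from 892.7 and 630.6 CPM to 58445 and 51612 CPM, with 215375 CPM as the mean at 44 h. All 5 metallothionein genes were called higher, at 30.0 CPM in sum in 36 h replicate 1 and 1393 CPM in replicate 2, and without replicate 2 the test called 2 of 4.

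The gene lengths that link the deposited counts with the RPKM values are whole numbers for all 12660 genes with a count, but do not follow the annotated lengths. Over 12471 genes matched to the BDGP6 annotation, the Spearman correlation between implied length and exon length was 0.0117. RPKM levels of different genes were therefore not compared with each other. The cause was not tested.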
